A study of Mus musculus with 9 samples.

Results

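The beta-adrenergic and cAMP signalling genes examined here are those of a set of 9 genes that the platform annotation maps to a row of the array table. They are 7 of the 9, namely the receptor gene Adra1b, the adenylyl cyclase genes Adcy5 and Adcy6, the phosphodiesterase genes Pde3a, Pde4b and Pde4d, and the G protein regulator gene Rgs2. The annotation used here lists no row for Adrb1 and Adra1a, which are not analysed here. The 7 genes have 1 probe set each and all 7 passed the filter on low values, among 12597 genes tested of 20239 with a gene symbol.

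The hearts came from male mice of the C57BL/6 strain, 3 in each of 3 groups, and each whole heart was run on 1 of 9 Affymetrix arrays. Every mouse received an adeno-associated virus at 8 weeks of age, had surgery 4 weeks later and was killed after another 4 weeks. The TAC-HDAC4-NT hearts received amino acids 1 to 201 of histone deacetylase 4 (HDAC4) and transaortic constriction (TAC), which loads the left ventricle with pressure. The TAC-luciferase hearts received luciferase, a control protein, and the same constriction. The sham-luciferase hearts received luciferase and a sham operation. An MLC (myosin light chain) promoter, which is active in heart muscle, drove both cargos, so no group was free of virus. No sham group received HDAC4-NT.

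Noradrenaline and adrenaline act on heart muscle through beta-adrenergic receptors, which activate adenylyl cyclase through the stimulatory G protein Gs. The cyclic AMP (cAMP) so formed activates protein kinase A, which raises the force and rate of contraction, and phosphodiesterases break cAMP down. Alpha1-adrenergic receptors act through another G protein, Gq, and are known for their part in the growth of heart muscle cells under load. In failing hearts this system is known to become less responsive to catecholamines.

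The values are log2 expression values from robust multi-array average (RMA), in which 1 unit is a doubling of the signal. The level of one gene cannot be set against that of another on this scale. Calls were made with limma, fitted to all 9 arrays, where the p adjusted by Benjamini-Hochberg over the 12597 genes was under 0.05. The second principal component, with 20.01% of the variance, set TAC-luciferase hearts 2 and 3 apart from the other 7 hearts. Those 2 hearts share the first number of their sample code, 9, whereas TAC-luciferase heart 1 has 8. The number was 3, 4 and 4 in TAC-HDAC4-NT hearts 1, 2 and 3, and 12 in every sham-luciferase heart. No number was shared between groups, so a difference that goes with it cannot be told apart from one between groups. A block for this number, used below as an alternative setting, cannot remove such a difference. The labels do not say what that number stands for. The probe set for the mouse's own Hdac4 stood at -0.02 log2 units in TAC-HDAC4-NT against TAC-luciferase (limma adjusted p 0.959) and does not check delivery of the fragment, since the position of its probes is unknown here.

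The heart muscle markers fitted the labelled tissue. All 8 of them passed the filter, and their mean log2 value per heart ran from 13.12 to 13.13 in TAC-HDAC4-NT, from 13.09 to 13.15 in TAC-luciferase and from 13.17 to 13.26 in sham-luciferase. Against sham, 2 of the 8 were called lower in TAC-luciferase and 1 in TAC-HDAC4-NT, and none was called higher. Markers of fibroblasts and macrophages differed more between TAC and sham. The mean of 7 fibroblast markers ran from 9.19 to 9.24 in TAC-HDAC4-NT, from 8.99 to 9.11 in TAC-luciferase and from 7.86 to 7.97 in sham-luciferase. The mean of 8 macrophage markers ran from 7.14 to 7.20, from 7.10 to 7.24 and from 6.75 to 6.90 in the same order of groups. That of 8 endothelial markers ran from 9.29 to 9.36, from 9.02 to 9.20 and from 9.20 to 9.24. That of 8 smooth muscle and pericyte markers ran from 8.22 to 8.24, from 8.05 to 8.14 and from 8.09 to 8.17. In these sets and in that of fibroblasts the TAC groups did not overlap, and no marker was called between them. Over all single genes tested, 20.4% did not overlap between the TAC groups. Atrial markers, 4 genes of which none was called, spread widely within groups, from 5.94 to 6.94, from 5.98 to 8.07 and from 6.43 to 7.49. The part of these cells in the results that follow was not tested. In whole hearts, fewer cells of a type and less RNA per cell cannot be told apart.

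In TAC-luciferase against sham-luciferase, 5 of the 7 genes fell and none rose. These were Adra1b, Adcy6, Pde3a, Pde4d and Rgs2. Over all genes tested, 26.1% were called in this comparison, 14.9% lower and 11.2% higher. The median log2 fold change of the 7 genes was -0.51, against -0.01 over all genes. The 2 groups did not overlap for the same 5 genes, and 37.4% of all genes did not overlap. The comparison asks what pressure load did to these genes in hearts with the control virus.

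In TAC-HDAC4-NT against sham-luciferase, 4 of the 7 genes fell, namely Adra1b, Pde3a, Pde4d and Rgs2, and none rose. The percentages called over all genes were 22.8% in either direction, 12.3% lower and 10.5% higher. The groups did not overlap for these 4 genes, and 39.7% of all genes did not overlap. The median log2 fold change of the 7 was -0.38, against -0.01 over all genes. This comparison has the same sham hearts as the first, so the falls in one are not independent of those in the other.

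**Figure D1:**
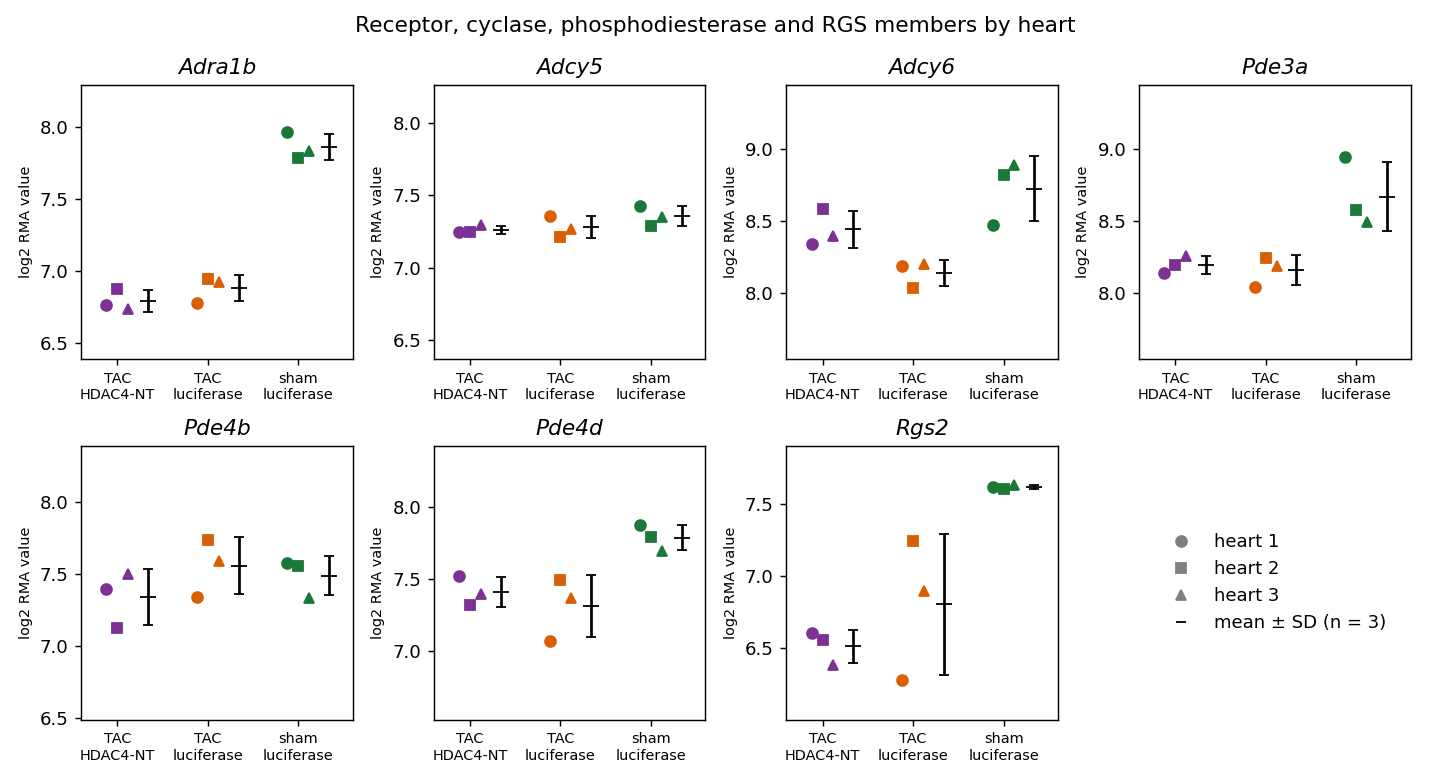
Log2 RMA value of each of the 7 genes (y axis, each panel spanning the same number of log2 units) in the 9 hearts, by group (x axis), with 1 symbol per heart number and the mean ± SD of each group as a bar. Adra1b, Pde3a, Pde4d and Rgs2 lie lower in all 6 TAC hearts than in any sham-luciferase heart, and Adcy5 and Pde4b overlap between groups.

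Adra1b encodes the alpha1B-adrenergic receptor, a Gq-coupled receptor of heart muscle. Its log2 values were 6.77, 6.88 and 6.74 in the TAC-HDAC4-NT hearts, 6.78, 6.95 and 6.93 in the TAC-luciferase hearts, and 7.97, 7.79 and 7.83 in the sham-luciferase hearts. All 6 TAC hearts lay below every sham heart, and the TAC groups overlapped. It was 1.97-fold lower in TAC-luciferase than in sham (log2 fold change -0.98, SE 0.07, limma adjusted p 2.97e-05) and 2.10-fold lower in TAC-HDAC4-NT than in sham (-1.07, SE 0.07, limma adjusted p 2.05e-05). Both calls were kept without each of the 9 hearts in turn.

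Adcy6 encodes 1 of the main adenylyl cyclases of heart muscle cells, the enzymes that make cAMP. Its values were 8.34, 8.59 and 8.40 in TAC-HDAC4-NT, 8.19, 8.04 and 8.20 in TAC-luciferase, and 8.47, 8.82 and 8.89 in sham-luciferase. The TAC-luciferase hearts were the lowest 3 of the 9, and the TAC-HDAC4-NT hearts lay between them and sham with an overlap with sham heart 1. It fell in TAC-luciferase against sham (log2 fold change -0.58, SE 0.11, limma adjusted p 0.00458). In TAC-HDAC4-NT against sham it stood at -0.28 (SE 0.11, limma adjusted p 0.102). Without sham heart 1 that value was -0.41 and passed (limma adjusted p 0.0132).

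Adcy5, the other main cyclase of heart muscle cells, stayed within a narrow range. Its values were 7.25, 7.25 and 7.30 in TAC-HDAC4-NT, 7.36, 7.21 and 7.27 in TAC-luciferase, and 7.43, 7.29 and 7.35 in sham-luciferase. The groups overlapped in every pair. The log2 fold change was -0.08 in TAC-luciferase against sham, with a 95% confidence interval from -0.20 to 0.05, and -0.09 in TAC-HDAC4-NT against sham, with an interval from -0.22 to 0.03. Both intervals leave out a change of the size seen for Adcy6 in TAC-luciferase.

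Pde3a encodes a phosphodiesterase that breaks down cAMP and is inhibited by cyclic GMP. Its values were 8.14, 8.19 and 8.26 in TAC-HDAC4-NT, 8.04, 8.25 and 8.19 in TAC-luciferase, and 8.94, 8.57 and 8.49 in sham-luciferase. Sham heart 1 was the highest, and no TAC heart reached the lowest sham heart. It was 1.42-fold lower in TAC-luciferase than in sham (log2 fold change -0.51, SE 0.11, limma adjusted p 0.00858). In TAC-HDAC4-NT it was 1.39-fold lower than in sham (-0.47, limma adjusted p 0.0130), a call that was lost without TAC-HDAC4-NT heart 1 (limma adjusted p 0.0527).

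Pde4d, a cAMP-specific phosphodiesterase known to act near the beta1 receptor and the ryanodine receptor, also fell. Its values were 7.52, 7.32 and 7.39 in TAC-HDAC4-NT, 7.07, 7.49 and 7.37 in TAC-luciferase, and 7.87, 7.79 and 7.70 in sham-luciferase. TAC-luciferase heart 1 was the lowest of the 9. It was 1.39-fold lower in TAC-luciferase than in sham (log2 fold change -0.47, SE 0.10, limma adjusted p 0.00937) and 1.30-fold lower in TAC-HDAC4-NT than in sham (-0.38, SE 0.10, limma adjusted p 0.0285). The call in TAC-HDAC4-NT was lost without sham heart 1 or 2 or TAC-HDAC4-NT heart 2 or 3, with limma adjusted p-values up to 0.0952, and also with the replicate number as a block (0.059).

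Pde4b, a related cAMP-specific phosphodiesterase, did not pass in either TAC group. Its values were 7.39, 7.12 and 7.50 in TAC-HDAC4-NT, 7.34, 7.73 and 7.59 in TAC-luciferase, and 7.58, 7.55 and 7.33 in sham-luciferase. The 3 groups overlapped. The log2 fold change was 0.07 in TAC-luciferase against sham, with a 95% confidence interval from -0.21 to 0.35, and -0.15 in TAC-HDAC4-NT against sham, with an interval from -0.43 to 0.13. The second value ran from -0.23 to -0.04 over the fits that leave out 1 heart, and moved most without TAC-HDAC4-NT heart 2. The interval of Pde4d was from -0.71 to -0.24 in TAC-luciferase, clear of that of Pde4b, and from -0.61 to -0.14 in TAC-HDAC4-NT, which overlaps it. Whether the genes differ in their change was not tested.

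Rgs2 encodes a regulator of G protein signalling that speeds the shutdown of Gq and is known to inhibit some adenylyl cyclases. Its values were 6.60, 6.55 and 6.38 in TAC-HDAC4-NT, 6.28, 7.24 and 6.89 in TAC-luciferase, and 7.62, 7.60 and 7.63 in sham-luciferase. The sham hearts lay within 0.03 log2 units of each other, and the TAC-luciferase hearts spread most (SD 0.49, against 0.12 in TAC-HDAC4-NT and 0.01 in sham-luciferase, n = 3 each). Heart 1 of TAC-luciferase was below every TAC-HDAC4-NT heart, and hearts 2 and 3 were above them. It was 2.15-fold lower in TAC-HDAC4-NT than in sham (log2 fold change -1.10, SE 0.20, limma adjusted p 0.00356) and 1.76-fold lower in TAC-luciferase than in sham (-0.81, SE 0.20, limma adjusted p 0.0142). Both calls were kept without each heart in turn, with the value in TAC-luciferase between -1.03 and -0.55.

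**Figure D2:**
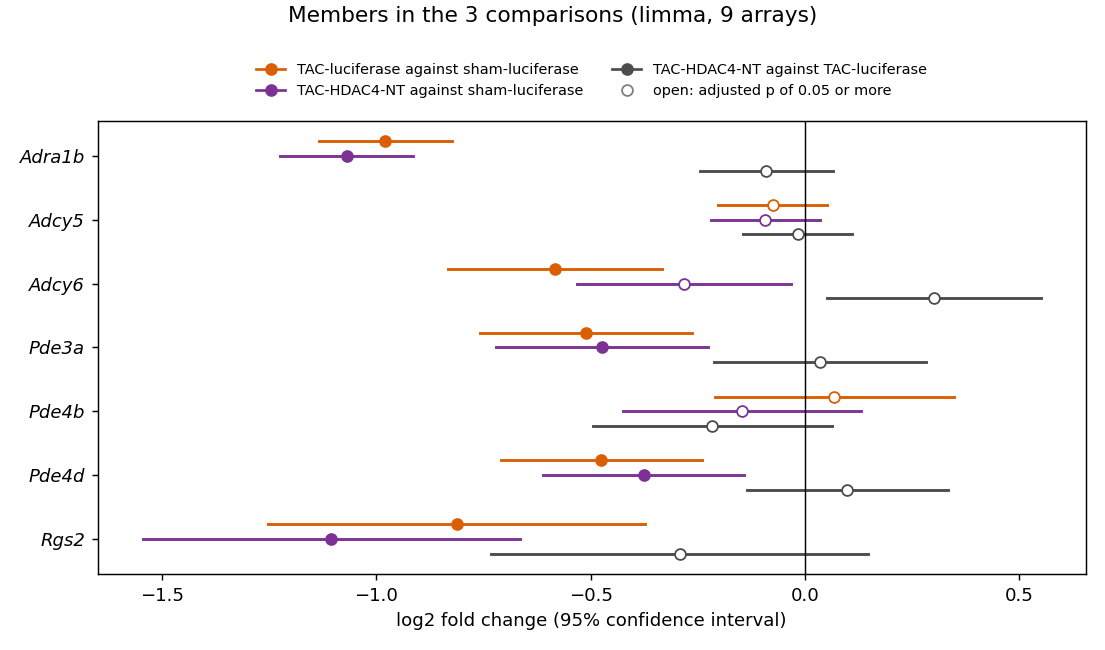
Log2 fold change (x axis) of each of the 7 genes (y axis) in the 3 comparisons, with its 95% confidence interval from limma, filled where the adjusted p was under 0.05. The intervals of Adra1b against sham lie below 0 in both TAC groups, with upper ends of -0.82 in TAC-luciferase and -0.91 in TAC-HDAC4-NT, and no point is filled in TAC-HDAC4-NT against TAC-luciferase.

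The comparison of TAC-HDAC4-NT with TAC-luciferase asks what the HDAC4 fragment changed under load. None of the 7 genes passed by limma, and 1 of them, Adcy6, had an unadjusted p under 0.05. Over all genes, 0.254% passed and 14.3% had an unadjusted p under 0.05. Adcy6 averaged 8.44 ± 0.13 in TAC-HDAC4-NT and 8.14 ± 0.09 in TAC-luciferase (SD, n = 3 each), with no overlap between these groups, as for 20.4% of all genes. The difference was 0.30 log2 units, with a 95% confidence interval from 0.05 to 0.55 (limma adjusted p 0.258). The adjusted p of Adcy6 ranged from 0.105 to 0.688 over the other settings tried, so the difference did not pass under any of them.

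For the other 6 genes the 95% confidence interval of TAC-HDAC4-NT against TAC-luciferase included 0. The interval ran from -0.25 to 0.07 for Adra1b, from -0.14 to 0.11 for Adcy5, from -0.21 to 0.28 for Pde3a and from -0.14 to 0.33 for Pde4d. It ran from -0.49 to 0.06 for Pde4b and from -0.73 to 0.15 for Rgs2, the widest of the 7. Rgs2 stood at -0.29 (SE 0.20, limma adjusted p 0.563). Without TAC-luciferase heart 1 it stood at -0.56 and passed (limma adjusted p 0.0174), while 697 of the 12597 genes then passed, against 32 with all hearts. Without TAC-luciferase hearts 2 and 3 its sign turned, at 0.24 (limma adjusted p 0.472).

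The order of the group means differed between genes. Adra1b and Rgs2 were lowest in TAC-HDAC4-NT, then TAC-luciferase, then sham-luciferase, and the TAC groups did not differ beyond their spread. Adcy6, Pde3a and Pde4d were lowest in TAC-luciferase, then TAC-HDAC4-NT, then sham-luciferase. The TAC groups overlapped for Pde3a and Pde4d and did not for Adcy6. For Adcy5 and Pde4b no neighbours in the order differed beyond their spread.

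Promoter sequences from RefSeq (build GRCm38.p6), from 250 bases before to 50 bases after a start site, were available for 5 of the 7 genes, as 9 promoters. They are shown because cAMP can act back on genes through the cAMP response element (CRE), which the factor CREB binds. The motifs were chosen after the array values were seen. The search used the full element TGACGTCA and the shorter core TGACG, on both strands, and the full element contains the core. No promoter of the 5 genes held the full element, which 1.79% of 32851 mouse promoters held. The core was in 2 of the 9, from Rgs2 and Pde4b, and in 20.8% of all promoters. The MEF2 consensus, searched because class IIa histone deacetylases act on the factor MEF2, was in none of the 9 and in 3.19% of all. The promoters of Rgs2 (chr1:144004100-144004399, minus strand) and of 1 of 4 start sites of Pde4b (chr4:102421305-102421604, plus strand) are given 5′ to 3′, with the cores in capitals.
Rgs2: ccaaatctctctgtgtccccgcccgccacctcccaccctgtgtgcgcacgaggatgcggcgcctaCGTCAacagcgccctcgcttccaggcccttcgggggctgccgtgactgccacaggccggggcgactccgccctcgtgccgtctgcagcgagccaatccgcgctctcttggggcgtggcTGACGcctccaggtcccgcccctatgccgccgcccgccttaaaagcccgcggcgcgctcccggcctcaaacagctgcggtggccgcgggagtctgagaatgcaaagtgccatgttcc
Pde4b: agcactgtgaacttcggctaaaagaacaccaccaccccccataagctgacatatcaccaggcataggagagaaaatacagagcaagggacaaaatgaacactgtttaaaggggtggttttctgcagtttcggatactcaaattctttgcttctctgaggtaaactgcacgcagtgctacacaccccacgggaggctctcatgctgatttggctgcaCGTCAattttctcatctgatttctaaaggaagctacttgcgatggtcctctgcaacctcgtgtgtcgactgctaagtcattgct
Rgs2 holds 2 cores, and of these 2 genes Rgs2 fell in both TAC groups and Pde4b passed in neither. Of the genes without a core, Adra1b and Pde4d also fell in both and Adcy5 passed in neither. A match describes these letters and does not show that CREB binds there.

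The rest of the pathway was read in 14 lists of related genes, which share 139 tested genes with the 7 included. In TAC-luciferase against sham-luciferase, 26 of the 139 rose and 23 fell, or 35.3% against 26.1% of all genes. The risers include Fos and the fallers include Gnai1. As given below, each passed the filter through a single group, which set its direction, so neither adds to these counts as evidence. In TAC-HDAC4-NT against sham-luciferase, 20 rose and 21 fell, or 29.5% against 22.8%. In TAC-HDAC4-NT against TAC-luciferase none passed by limma (smallest adjusted p 0.0637), and 33 had an unadjusted p under 0.05, or 23.7% against 14.3% of all genes. The median over the 139 genes lay between -0.01 and 0.01 log2 units in each comparison, as it did over all genes.

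At the level of the receptors, Adra2c, an alpha2 receptor gene, was the only other adrenergic receptor gene tested, and it stood at 0.03 in TAC-luciferase and -0.02 in TAC-HDAC4-NT against sham. No beta-adrenergic receptor gene was tested. Among 5 receptor kinase and arrestin genes, which switch off activated receptors, 2 rose in each TAC group and none fell. They were Grk3, Grk5, Grk6, Arrb1 and Arrb2, and the receptor kinase gene Grk2 was not tested. Grk5, a kinase that phosphorylates active adrenergic receptors, had log2 values of 8.52, 8.28 and 8.44 in TAC-HDAC4-NT, 8.21, 8.24 and 8.61 in TAC-luciferase, and 7.41, 7.50 and 7.41 in sham-luciferase. It rose 1.97-fold in TAC-HDAC4-NT (limma adjusted p 0.000279) and 1.89-fold in TAC-luciferase (0.000358). Arrb1, which encodes beta-arrestin 1, rose by 0.75 log2 units in TAC-HDAC4-NT and by 0.46 in TAC-luciferase (limma adjusted p 0.000186 and 0.00223). The list's median was 0.18 and 0.16 in these comparisons.

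Of 21 G protein subunit genes, 6 rose and 2 fell in TAC-luciferase against sham, with a median of 0.08, and 5 rose and 1 fell in TAC-HDAC4-NT, with a median of 0.09. Gnao1, an inhibitory alpha subunit gene, rose 2.13-fold in TAC-HDAC4-NT and 1.94-fold in TAC-luciferase (limma adjusted p 0.000105 and 0.000185). Gnai2, which encodes an inhibitory subunit that restrains adenylyl cyclase, rose by 0.38 log2 units in TAC-HDAC4-NT and by 0.25 in TAC-luciferase (limma adjusted p 0.00413 and 0.029). Its call in TAC-luciferase, like that of Gnb1 given below, was not refitted without single hearts. Gna11, a Gq family gene, fell by 0.36 log2 units in TAC-luciferase, and Gng12, a gamma subunit gene, rose by 0.31 in TAC-HDAC4-NT and by 0.27 in TAC-luciferase. Gnai3, another inhibitory alpha subunit gene, rose by 0.37 in TAC-luciferase, and Gnb1, a beta subunit gene, by 0.24 in TAC-HDAC4-NT, a call lost without TAC-HDAC4-NT heart 1 (limma adjusted p 0.0521), and by 0.17 in TAC-luciferase. Without TAC-luciferase hearts 2 and 3, Gnai3 stood at 0.21, Gna11 at -0.19 and Gng12 at 0.24 in TAC-luciferase, and none of these passed. The other faller in TAC-luciferase, Gnai1, lay above the filter value in the sham hearts only. It was tested only because it was high there, so its call supports nothing further. Gnas, which encodes the stimulatory Gs alpha subunit, stood at 0.09 in TAC-HDAC4-NT and at -0.03 in TAC-luciferase and did not pass.

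Among 8 adenylyl cyclase genes, the isoforms went different ways. Adcy7, an isoform also known from blood cells, had values of 7.46, 7.57 and 7.41 in TAC-HDAC4-NT, 7.44, 7.08 and 7.08 in TAC-luciferase, and 6.18, 6.17 and 6.13 in sham-luciferase. It rose 2.50-fold in TAC-HDAC4-NT and 2.05-fold in TAC-luciferase (limma adjusted p 3.27e-05 and 0.000107). Markers of fibroblasts and of macrophages were both higher in the TAC hearts, as given above, and their part in this rise was not tested. Adcy9 fell by 0.30 log2 units in TAC-HDAC4-NT and by 0.44 in TAC-luciferase (limma adjusted p 0.00740 and 0.00100). With Adcy6, that makes 1 higher and 2 lower in TAC-luciferase and 1 higher and 1 lower in TAC-HDAC4-NT, with list medians of 0.02 and -0.06.

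Of 16 phosphodiesterase genes, 2 rose and 5 fell in TAC-luciferase against sham, with a median of -0.02, and 3 rose and 4 fell in TAC-HDAC4-NT, with a median of -0.01. Pde4a, another cAMP-specific phosphodiesterase of the PDE4 family, fell 1.48-fold in TAC-HDAC4-NT and 1.62-fold in TAC-luciferase (limma adjusted p 0.00394 and 0.00115). Pde8a, which encodes a cAMP phosphodiesterase of high affinity, rose 1.52-fold in TAC-HDAC4-NT and 1.88-fold in TAC-luciferase (limma adjusted p 0.00158 and 0.000166). Pde2a, which is stimulated by cyclic GMP, averaged 8.94 ± 0.09 in TAC-HDAC4-NT, 8.55 ± 0.08 in TAC-luciferase and 9.14 ± 0.20 in sham-luciferase (SD, n = 3 each), with TAC-luciferase clear of the other groups. It fell by 0.59 log2 units in TAC-luciferase (limma adjusted p 0.00210) and stood at -0.20 in TAC-HDAC4-NT (0.181). Pde7a fell by 0.71 in TAC-HDAC4-NT and by 0.38 in TAC-luciferase (limma adjusted p 0.00256 and 0.0432). In TAC-luciferase hearts 1 and 2 it lay at 7.22 and 7.32, but heart 3, at 7.683, overlapped sham heart 1, at 7.679. Pde7b rose by 0.53 in TAC-HDAC4-NT and by 0.41 in TAC-luciferase (limma adjusted p 0.00528 and 0.0166), where the call was lost without sham heart 1 (0.0571). The calls of Pde7a in TAC-luciferase and of Pde7b in TAC-HDAC4-NT were not refitted without single hearts. Pde9a, a cyclic GMP phosphodiesterase gene, rose by 0.26 in TAC-HDAC4-NT, with values from 5.77 to 6.12 over the hearts, near the filter value of 5.66.

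**Figure D3:**
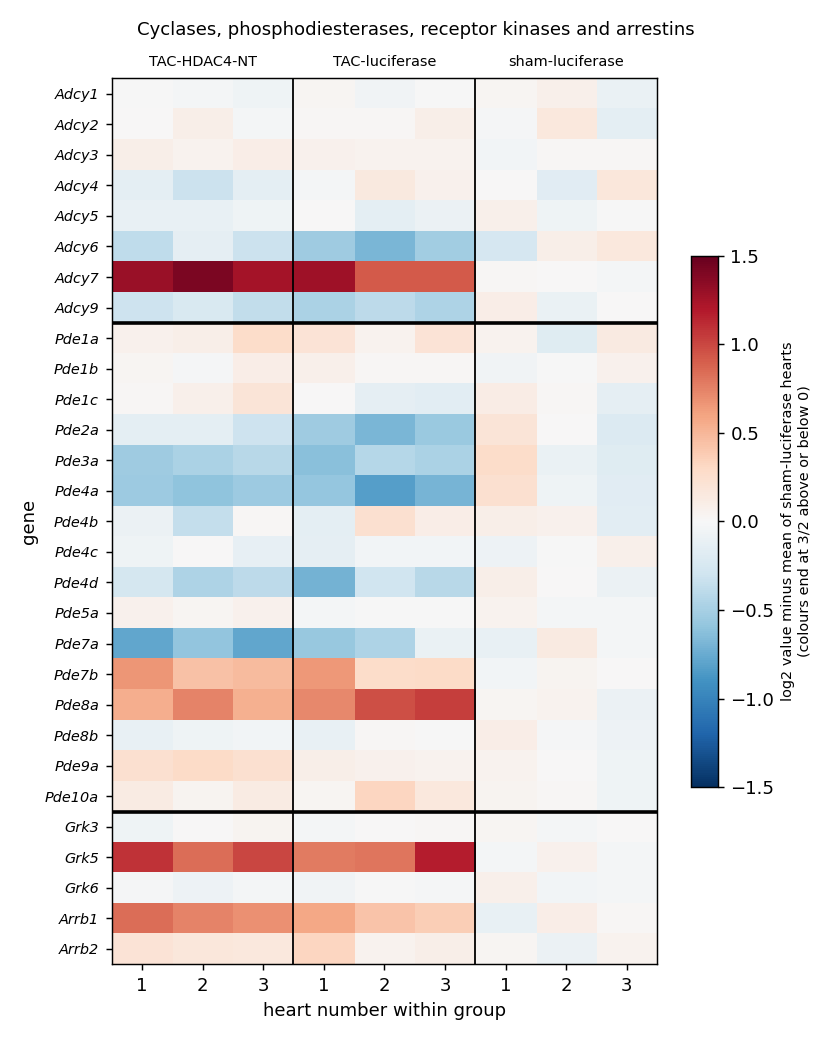
Log2 value minus the mean of the 3 sham-luciferase hearts (colour, from -1.5 to 1.5) for the tested adenylyl cyclase, phosphodiesterase, and receptor kinase and arrestin genes (rows, lists parted by thick lines) in each heart (columns, grouped by treatment). Adcy7, Pde8a, Grk5 and Arrb1 are red in all 6 TAC hearts, and Pde3a, Pde4a, Pde4d and Adcy9 are blue in all 6.

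Downstream of cAMP, 8 protein kinase A genes had 1 riser and 2 fallers in each TAC group against sham, with medians of 0.01 in TAC-HDAC4-NT and -0.06 in TAC-luciferase. Prkar1a, which encodes a regulatory subunit that holds the kinase inactive, rose by 0.35 log2 units in TAC-HDAC4-NT and by 0.39 in TAC-luciferase (limma adjusted p 0.00596 and 0.00352). Pkig, a kinase inhibitor gene, fell by 0.26 and 0.24, Pkia, another, by 0.46 in TAC-luciferase, and Prkaca, the catalytic subunit gene, by 0.27 in TAC-HDAC4-NT. The calls of Pkig in both TAC groups, of Pkia and of Prkaca were each lost without some single hearts (3 for Pkig in TAC-HDAC4-NT and 4 in TAC-luciferase, 2 for Pkia and 5 for Prkaca, of 9 hearts left out in turn), among them sham heart 1 in each case.

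Of 10 A-kinase anchoring protein genes, which place the kinase in the cell, 2 rose and 2 fell in each TAC group, with medians of 0.00 in TAC-HDAC4-NT and -0.10 in TAC-luciferase. Akap1, which anchors the kinase at mitochondria, fell 1.54-fold in TAC-HDAC4-NT and 1.59-fold in TAC-luciferase (limma adjusted p 0.000626 and 0.000390). Akap7 fell 1.33-fold and 1.48-fold, and Akap13 rose 1.34-fold and 1.31-fold in the same order of groups. Akap6 rose by 0.28 log2 units in TAC-HDAC4-NT, a call lost without 5 of the 9 hearts in turn, namely sham hearts 1 and 3 and each TAC-HDAC4-NT heart. Akap12 rose by 0.88 in TAC-luciferase, with TAC-luciferase hearts at 6.76, 8.19 and 7.39. Its call was lost without any heart but TAC-luciferase heart 1 (limma adjusted p up to 0.122), and its value was 0.51 without TAC-luciferase heart 2 and 0.19 without hearts 2 and 3. Akap13 stood at 0.28 without those 2 hearts and did not pass.

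Among 6 genes of other cAMP effectors, Hcn2, a channel gated by cyclic nucleotides, fell 1.44-fold in TAC-HDAC4-NT and 1.36-fold in TAC-luciferase (limma adjusted p 0.000201 and 0.000413). Hcn4 fell too, by 0.38 and 0.24 log2 units, so that 2 fell in each TAC group, with Popdc3, which encodes a cAMP-binding membrane protein, higher by 0.40 in TAC-luciferase. The Hcn4 call in TAC-luciferase was lost without 7 of the 9 hearts, and under cyclic loess scaling, and the Popdc3 call without 4. The list's medians were -0.02 in TAC-HDAC4-NT and 0.07 in TAC-luciferase. Of 12 genes whose proteins the kinase phosphorylates in heart muscle, 1 rose and none fell in TAC-HDAC4-NT, and 1 rose and 1 fell in TAC-luciferase, with medians of -0.10 and -0.14. Mybpc3, a thick filament protein gene, rose by 0.35 and 0.28, and Fxyd1, which encodes the sodium pump regulator phospholemman, fell by 0.18 in TAC-luciferase. The Mybpc3 calls were lost without 2 of the 9 hearts in TAC-HDAC4-NT and without 7 in TAC-luciferase, where its value was moved by over 1.5 times without sham heart 1 (0.18). The Fxyd1 call was lost without 5 and under cyclic loess scaling. Pln, the gene of the calcium pump regulator phospholamban, stood at -0.09 and -0.16, and Ryr2, the calcium release channel gene, at -0.14 and -0.13.

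Of 16 genes of the CREB family, its coactivators and targets inducible by cAMP, 6 rose in TAC-luciferase against sham and none fell, with a median of 0.28. In TAC-HDAC4-NT against sham none rose and 2 fell, with a median of -0.10. Crem, a CREB relative that cAMP induces, had values of 6.04, 6.03 and 6.15 in TAC-HDAC4-NT, 6.18, 6.69 and 6.54 in TAC-luciferase, and 6.01, 5.97 and 6.03 in sham-luciferase. Fos, an immediate early gene, had values of 5.47, 5.49 and 5.55 in TAC-HDAC4-NT, 5.74, 7.05 and 6.67 in TAC-luciferase, and 5.56, 5.64 and 5.57 in sham-luciferase. For both genes TAC-luciferase hearts 2 and 3 were the highest of the 9 and heart 1 lay nearer to the other groups.

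Crem rose by 0.47 log2 units in TAC-luciferase (limma adjusted p 0.0126), and Nr4a1, an orphan nuclear receptor gene, by 2.57 (0.0220). Fos, 1 of the 6 called higher, lay above the filter value of 5.66 in the TAC-luciferase hearts only. It was tested only because it was high there, so its call (limma adjusted p 0.0325) supports nothing further, and no fold against hearts under that value is given here. The Fos call was lost without any 1 of the sham hearts and of TAC-luciferase hearts 2 and 3 (limma adjusted p up to 0.0967), and the Nr4a1 call without sham heart 1 or 3 or TAC-luciferase heart 2 or 3 (up to 0.0779). Without TAC-luciferase hearts 2 and 3 together, Crem stood at 0.18 and Nr4a1 at 0.60, and neither they nor Fos passed. Of the 16 genes, 7 were more than 0.5 log2 units higher in both TAC-luciferase hearts 2 and 3 than in heart 1, a limit chosen after the values were seen. Crtc2, a CREB coactivator gene, did not split the group this way, at 7.57, 7.58 and 7.49 in TAC-luciferase against 7.28, 7.36 and 7.34 in sham-luciferase, and rose by 0.22 (limma adjusted p 0.0114). Its value was as large without hearts 2 and 3 (0.24), although with 1 heart left it did not pass (limma adjusted p 0.0660).

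In TAC-HDAC4-NT against TAC-luciferase this list had a median of -0.45, against 0.00 over all genes. Of its 16 genes, 9 had an unadjusted p under 0.05, as had 14.3% of all genes, and none passed by limma. The 9 include Fos, which was tested only because it was high in TAC-luciferase, so its place in that count and in the list's median is no evidence of a difference. The TAC-luciferase means include hearts 2 and 3, in which 7 of the 16 genes were over 0.5 log2 units higher than in heart 1. The part of those 2 hearts in the list's median was not tested. Crem averaged 6.07 ± 0.07 in TAC-HDAC4-NT and 6.47 ± 0.26 in TAC-luciferase (SD, n = 3 each), a difference of -0.40 (limma adjusted p 0.142). Its TAC-luciferase hearts 1, 2 and 3 lay at 6.18, 6.69 and 6.54. The genes of the list that fell in TAC-HDAC4-NT against sham were Ppargc1a, a coactivator of mitochondrial genes, by 1.05 log2 units (limma adjusted p 0.0109), and Crtc3 by 0.33, whose call was lost without 4 of the 9 hearts, namely sham hearts 1 and 3 and TAC-HDAC4-NT hearts 1 and 2. Ppargc1a lay at 9.31, 9.19 and 9.54 in TAC-HDAC4-NT and at 9.56, 10.46 and 10.56 in TAC-luciferase, where heart 1 was nearer to the TAC-HDAC4-NT hearts, and at 10.33, 10.26 and 10.62 in sham-luciferase.

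**Figure D4:**
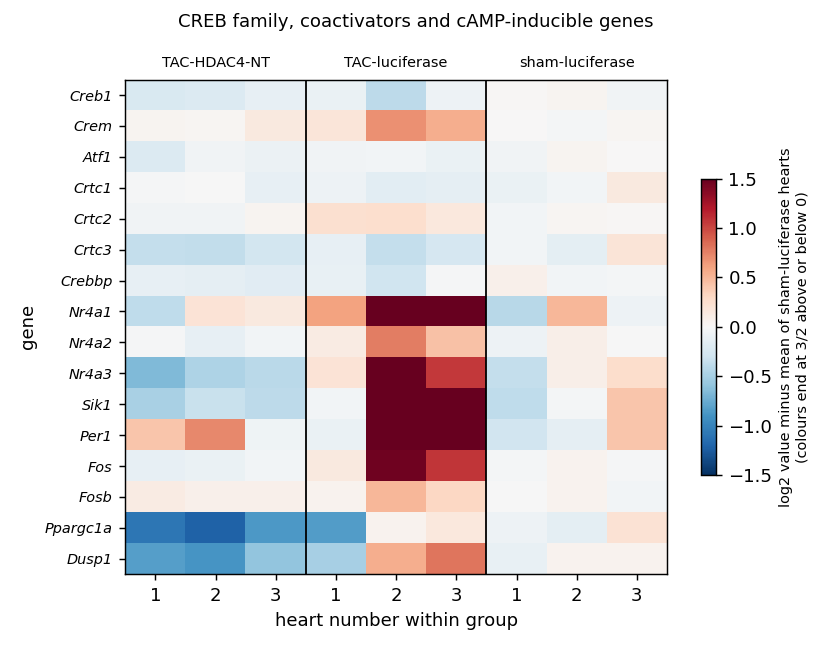
Log2 value minus the mean of the 3 sham-luciferase hearts (colour, from -1.5 to 1.5) for the 16 tested genes of the CREB family, its coactivators and cAMP-inducible targets (rows) in each heart (columns). Fos, Crem and Nr4a1 are reddest in TAC-luciferase hearts 2 and 3, and Ppargc1a is blue in the TAC-HDAC4-NT hearts and TAC-luciferase heart 1.

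On the alpha1 receptor side, 12 genes of Gq effectors had 2 risers and 3 fallers in each TAC group, with medians of 0.07 in TAC-HDAC4-NT and 0.02 in TAC-luciferase. Prkcd, a protein kinase C gene, rose 1.56-fold in TAC-HDAC4-NT and 1.73-fold in TAC-luciferase (limma adjusted p 0.00252 and 0.000727). Prkce, another isoform, fell 1.44-fold and 1.33-fold, and Prkd1, protein kinase D1, which is known to phosphorylate class IIa histone deacetylases, fell by 0.22 and 0.27 log2 units. Prkca rose by 0.29 in each, and lost its call without 2 of the 9 hearts in each comparison, sham heart 1 in both. It stood at 0.24 in TAC-luciferase without TAC-luciferase hearts 2 and 3 and did not pass.

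Among the other 9 regulators of G protein signalling tested beside Rgs2, Rgs10 rose by 0.53 log2 units in TAC-HDAC4-NT and Rgs16 by 0.21 in TAC-luciferase, and both calls were lost without single hearts, 5 of 9 for Rgs10 and 7 of 9 for Rgs16 (limma adjusted p up to 0.0900 and 0.130). Rgs2 was the list's 1 faller in each TAC group. The list's medians were 0.04 in TAC-HDAC4-NT and -0.01 in TAC-luciferase. Rgs5, a pericyte gene, and Rgs4 did not pass, at 0.05 and -0.16 in TAC-HDAC4-NT and -0.13 and -0.13 in TAC-luciferase.

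Of 7 genes of catecholamine synthesis, uptake and breakdown, 1 passed the filter, Maob, which encodes a monoamine oxidase that breaks down amines at mitochondria. Its values were 7.84, 7.76 and 8.10 in TAC-HDAC4-NT, 8.10, 8.03 and 8.13 in TAC-luciferase, and 9.35, 9.10 and 8.86 in sham-luciferase. It fell 2.30-fold in TAC-HDAC4-NT and 2.02-fold in TAC-luciferase (limma adjusted p 0.000187 and 0.000416). Th and Dbh, genes of noradrenaline synthesis in sympathetic nerves, lay under the filter value of 5.66 on all 9 arrays.

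Another list of 12 genes held receptors, most of them coupled to Gs or Gi, and the ligand gene Apln, which encodes apelin. Of these, 2 receptor genes rose and Apln fell in TAC-HDAC4-NT, and 1 receptor gene rose and 1 fell in TAC-luciferase, with list medians of 0.03 and 0.02. Chrm2, the muscarinic receptor gene through which the vagus nerve lowers cAMP, had values of 10.49, 10.57 and 10.43 in TAC-HDAC4-NT, 9.92, 10.12 and 10.23 in TAC-luciferase, and 10.50, 10.63 and 10.48 in sham-luciferase. It fell by 0.44 log2 units in TAC-luciferase (limma adjusted p 0.00412) and stood at -0.04 in TAC-HDAC4-NT (0.795). The difference between the TAC groups was 0.40 and did not pass (limma adjusted p 0.0653). Ptger4, a prostaglandin receptor gene, rose by 0.35 in TAC-HDAC4-NT and by 0.43 in TAC-luciferase, and Calcrl, which encodes the receptor of adrenomedullin, rose by 0.69 and Apln fell by 0.30 in TAC-HDAC4-NT. The Apln call was lost without 4 of the 9 hearts.

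The genes whose log2 values over the 9 arrays were most correlated with each of the 7 were sought among all genes tested. Pearson's r was highest for Adra1b, with Acad12, Got1 and Atg2a at 0.99 to 1.00, and lowest for Pde4b, with Brwd1, Zranb1 and Dag1 at 0.91 to 0.92. Pde3a was closest to Tarsl2, Klhl23 and Gmps at 0.99, Pde4d to Cmc2, Atg10 and Coro6 at 0.97 to 0.99, and Rgs2 to Lgi1, Trmt5 and Wfdc1 at 0.98. Adcy6 was closest to Prag1, Syngr2 and Gtf3a at 0.96 to 0.98 and Adcy5 to Dhx30, Rac3 and Erbb4 at 0.95 to 0.97. The arrays fall into groups, which the correlations share, so they describe these 9 hearts only.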

How the data were processed

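Per the labels' protocols, total heart RNA was extracted with Trizol and made into biotinylated cRNA for Affymetrix arrays. Per the submitters' processing notes, the authors' log2 values come from RMA. Its version, the probe set definitions and the build were not stated. Sorted values were identical on all 9 arrays, as after quantile normalization. RMA understates fold changes of weak genes. The table has no detection p, and precision is set by the small number of arrays. Of 21225 probe sets, 20239 had 1 gene symbol in the platform annotation and 986 were unnamed. All 20239 matched RefSeq gene IDs (GRCm38.p6), used for names only.

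A gene was tested where 3 or more arrays exceeded 5.66, the 40th percentile of the whole table. One limma 3.58.1 model in R 4.3.3 covered the 3 groups, without covariates (degrees of freedom 6 residual, 3.23 prior). The design text gives 3 animals a group and no pairing. Same-numbered hearts' deviations from group means correlated between -0.12 and 0.20 over all comparisons, and between 0.03 and 0.20 in TAC-HDAC4-NT against TAC-luciferase. As the design text gives no pairing, numbers were not taken as pairs, and a block for them was an alternative setting. Named list genes were up to 4 others per list and comparison with the smallest p among those called, and the text adds some named after their values were seen (Gnas, Pln, Ryr2, Adra2c, Rgs4, Rgs5, Th, Dbh, Gnai1, Gnai2, Gnb1 and Pde7a in TAC-luciferase, Pde7b in TAC-HDAC4-NT, and list genes given in TAC-HDAC4-NT against TAC-luciferase). The 7 genes, the lists and the tests were chosen with earlier results of these data known. The alternatives were other filters, priors and scalings, array weights, only the 2 groups compared, blocks, and leaving out each array. Those chosen after seeing the data were leaving out TAC-luciferase hearts 2 and 3 together and an atrial covariate. The scripts were tested on simulated data. Python 3.11.15 and matplotlib 3.10.9 made the figures.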

Additional observations from a re-analysis of the deposited data

Results flagged for a closer look

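For Fos and Akap5, every TAC-HDAC4-NT heart lay on one side of all sham-luciferase hearts and every TAC-luciferase heart on the other. Akap5, which encodes an anchoring protein of protein kinase A, had log2 values of 5.96, 5.94 and 5.93 in TAC-HDAC4-NT, 5.84, 5.75 and 5.81 in TAC-luciferase, and 5.92, 5.92 and 5.88 in sham-luciferase. It passed in no comparison, at 0.03 in TAC-HDAC4-NT and -0.11 in TAC-luciferase against sham (limma adjusted p 0.644 and 0.101) and at 0.14 in TAC-HDAC4-NT against TAC-luciferase (0.18). All TAC-HDAC4-NT and sham values of Fos lay under the filter value of 5.66, so it was tested only through the TAC-luciferase hearts. Among values that low, the order of the highest TAC-HDAC4-NT heart, at 5.55, and the lowest sham heart, at 5.56, cannot be read as a difference (limma adjusted p 0.867). The fitted value of Fos in TAC-HDAC4-NT against TAC-luciferase, -0.98 log2 units, is therefore against a signal under the filter and did not pass (limma adjusted p 0.127). Groups of 3 hearts were not searched for single hearts far from the others.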

How the results depend on the processing

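The count of the 7 genes called was 4 or 5 in TAC-luciferase against sham-luciferase and 3 or 4 in TAC-HDAC4-NT against sham-luciferase under all 19 other settings, with every call lower. In TAC-HDAC4-NT against TAC-luciferase it was 0, and between 0 and 1 over the fits that leave out 1 heart (Rgs2, without TAC-luciferase heart 1). Of 399 values of the 7 genes under other settings, 378 kept their direction and side of the threshold. Adcy6 in TAC-luciferase against sham lost its call without TAC-luciferase hearts 2 and 3 together (adjusted p 0.0644) with a value about as large, at -0.54, where the lone heart is assumed to vary like the other groups, and Pde4d in TAC-HDAC4-NT lost its call with no filter (0.0576). The 11 values that changed sign belonged to differences that did not pass. In TAC-HDAC4-NT against TAC-luciferase, weighted arrays gave Adcy5 0.0037 and Pde3a -0.011. Over the fits that leave out 1 heart, Adcy5 ran from -0.052 to 0.023, Pde3a from -0.023 to 0.079 and Pde4d from -0.021 to 0.19, with the changed sign without TAC-luciferase heart 1, and leaving out hearts 2 and 3 gave Adra1b 0.015 and Rgs2 0.24. In TAC-luciferase against sham, Pde4b ran from -0.019 to 0.18 over the fits that leave out 1 heart (-0.0095 without sham heart 3, -0.019 without TAC-luciferase heart 2) and was -0.14 without TAC-luciferase hearts 2 and 3, and Adcy5 was 0.0057 in the last. The causes were not tested.

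Over all genes, the 32 calls in TAC-HDAC4-NT against TAC-luciferase became 10 with no filter, 103 with the 60th percentile filter, 75 with a trended and robust prior, 827 with array weights, 0 with only the 6 arrays compared, 106 with the replicate number as a block, 177 with a random block for the code's first number, 10 without TAC-luciferase hearts 2 and 3, 7 with atrial genes as a covariate, and 1 to 697 leaving out 1 heart. The 3283 calls in TAC-luciferase against sham became 1926 without TAC-luciferase hearts 2 and 3. The replicate block changed 1 call of the 7 genes (Pde4d in TAC-HDAC4-NT against sham), and 4 of 6 hearts at most lay closest to the heart of their own number. Of 1303 values of the named list genes, 137 lost their call and none changed sign. Low values kept Crem, Fos, Pde9a, Prkd1, Ptger4 and Rgs16 out of the fit with the 60th percentile filter.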
